A study of Mus musculus with 6 samples.

Results

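Triglyceride synthesis from glycerol 3-phosphate was followed through 10 enzyme genes, Gpam, Gpat3, Gpat4, Agpat1, Agpat2, Agpat3, Lpin1, Lpin2, Dgat1 and Dgat2. They were listed by name and matched by gene identifier, and all 10 were found among the 23808 genes of the table. The RNA came from hearts of female wild-type mice kept on normal chow (NC) or a high-fat diet (HFD) between 4 and 12 weeks of age, and mRNA sequencing libraries were made from it. Each diet had 3 libraries, numbered 1 to 3, and no other treatment or allele is given for either diet. Whether each library is a separate animal is not in the labels. A p-value here therefore only sets a diet difference against the spread between libraries, and that spread may be technical.

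Most cells make triglyceride in 4 steps. A glycerol 3-phosphate acyltransferase (GPAT) attaches the first fatty acid, an acylglycerol phosphate acyltransferase (AGPAT) attaches the next and gives phosphatidate, a lipin removes the phosphate to give diacylglycerol, and a diacylglycerol acyltransferase (DGAT) adds the last fatty acid. Phosphatidate and diacylglycerol are also the starting points of the membrane phospholipids. In the heart, triglyceride forms a small store in cardiomyocytes that is filled and emptied as fatty acid arrives from blood and is burned, while adipocytes on the surface of the heart hold far more.

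By GENCODE annotation of GRCm38, the assembly that mm10 names, all 10 are protein-coding genes. Gpam lies on chromosome 19 from 55067268 to 55127238, Gpat3 on chromosome 5 from 100845713 to 100899102 and Gpat4 on chromosome 8 from 23171265 to 23208346. Agpat1 lies on chromosome 17 from 34604262 to 34613449, Agpat2 on chromosome 2 from 26593057 to 26604417 and Agpat3 on chromosome 10 from 78269178 to 78352489. Lpin1 lies on chromosome 12 from 16535669 to 16610966, and Lpin2 on chromosome 17 from 71182560 to 71249817. Dgat1 lies on chromosome 15 from 76502015 to 76511953 and Dgat2 on chromosome 7 from 99153658 to 99182719. Exons of Gpam, Gpat4, both lipins and both DGAT genes overlap those of no other annotated gene. Exons of Agpat2 share 64 bases with Egfl7 on the opposite strand, and those of Agpat1 share 101 bases with Egfl8 on the opposite strand. Those of Gpat3 share 1052 bases with the antisense gene 4930458D05Rik and 259 bases with Gm42987 on the same strand. Exons of Agpat3 share 16 bases with Gm40709. The sources used here do not say whether the authors counted by strand, so FPKM of such a pair are uncertain. Counting by strand would not tell Gpat3 from Gm42987.

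Promoter sequence from RefSeq (GRCm38.p6, 250 bases before to 50 after an annotated start) was matched for 7 of the 10 genes. The promoters of Gpam are shown because its part of the first step differed most between the diets, and that of Lpin1 because it was the leading lipin. Gpam has 2 annotated starts, with promoters at chr19:55099428-55099727 (inner start) and chr19:55127189-55127488 (outer start, at the edge of the gene) on the minus strand, and the values are per gene, so they do not say which start was used. The Lpin1 promoter is chr12:16610917-16611216, also on the minus strand. Capitals mark matches on either strand to CCAAT (the CCAAT box), CACGTG (an E-box), GGGCGG (the GC box), TCACCCCAC (a sterol response element) and AGGTCA (a nuclear receptor half-site).
Gpam, inner start: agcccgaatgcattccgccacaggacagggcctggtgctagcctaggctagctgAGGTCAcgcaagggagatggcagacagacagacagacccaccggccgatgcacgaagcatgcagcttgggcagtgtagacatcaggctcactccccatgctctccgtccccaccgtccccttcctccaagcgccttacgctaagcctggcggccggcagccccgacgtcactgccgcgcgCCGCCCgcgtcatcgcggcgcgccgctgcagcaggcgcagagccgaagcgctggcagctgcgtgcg
Gpam, outer start: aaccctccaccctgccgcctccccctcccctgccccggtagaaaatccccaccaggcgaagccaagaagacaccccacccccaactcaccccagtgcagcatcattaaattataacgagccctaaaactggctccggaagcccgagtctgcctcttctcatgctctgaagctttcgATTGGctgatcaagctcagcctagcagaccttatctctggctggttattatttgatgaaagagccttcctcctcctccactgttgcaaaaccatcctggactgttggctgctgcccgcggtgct
Lpin1: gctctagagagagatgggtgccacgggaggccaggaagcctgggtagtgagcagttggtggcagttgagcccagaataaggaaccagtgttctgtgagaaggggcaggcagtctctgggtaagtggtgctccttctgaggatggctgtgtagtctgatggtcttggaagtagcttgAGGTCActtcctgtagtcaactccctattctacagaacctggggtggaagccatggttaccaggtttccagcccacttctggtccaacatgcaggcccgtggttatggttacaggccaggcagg

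In the inner Gpam promoter, AGGTCA begins at base 55 and a GC box, read on the opposite strand, at base 235. The outer Gpam promoter has a CCAAT box on the opposite strand at base 177 and no other match. Lpin1 has 1 match, AGGTCA at base 177. Of 32851 RefSeq promoters of the same length 37.4% hold CCAAT, 35.7% GGGCGG and 16.3% AGGTCA. The E-box CACGTG, held by 7.15%, and the sterol element TCACCCCAC, held by 0.551%, are in none of the 3 windows. A match is a description of the letters and shows no binding.

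Values are FPKM, a fragment count scaled to gene length and to the size of the library, which allows levels of different genes to be compared. The summed FPKM lay between 694956 and 739406 in the NC libraries and between 576334 and 708120 in the HFD libraries, and the read depth is unknown. HFD 1 was listed at 0 for 4 mitochondrially encoded genes that were at 2516 FPKM or more in the other libraries. The tissue label was checked on 12 cardiomyocyte markers, which summed to 30027 to 40539 FPKM under NC and 27130 to 30302 FPKM under HFD, with the ventricular myosin light chain gene Myl2 the most abundant. Of 14 atrial markers Nppa was the most abundant, and Bmp10 and Cpne4 were listed at 0 in at least 1 library. The 14 summed to 3620, 381 and 14060 FPKM in NC 1, NC 2 and NC 3. In HFD 1, HFD 2 and HFD 3 they summed to 1583, 471 and 7239 FPKM. The libraries of both diets thus differed widely in atrial transcripts.

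The heart expressed every step, and each step had 1 leading gene. Dgat2 was the most abundant of the 10 enzymes, with a median of 74.4 FPKM over the 6 libraries, followed by Agpat3 (51.4 FPKM), Agpat1 (26.0 FPKM), Agpat2 (21.5 FPKM), Dgat1 (9.52 FPKM), Lpin1 (7.11 FPKM), Gpat4 (5.50 FPKM), Gpam (2.29 FPKM), Lpin2 (2.20 FPKM) and Gpat3 (2.18 FPKM). Ranges over the libraries did not overlap between Dgat2 and Agpat3, Agpat3 and Agpat1, Agpat2 and Dgat1, or Gpat4 and Gpam. Neighbours in the rest of this order overlapped, and Gpam, Lpin2 and Gpat3 cannot be ranked. Among the 11456 tested genes, Dgat2 stood at the 95.1 percentile of mean level, Agpat3 at the 92.5, Lpin1 at the 58.0, Gpat4 at the 50.6 and Gpam at the 16.6.

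**Figure D1:**
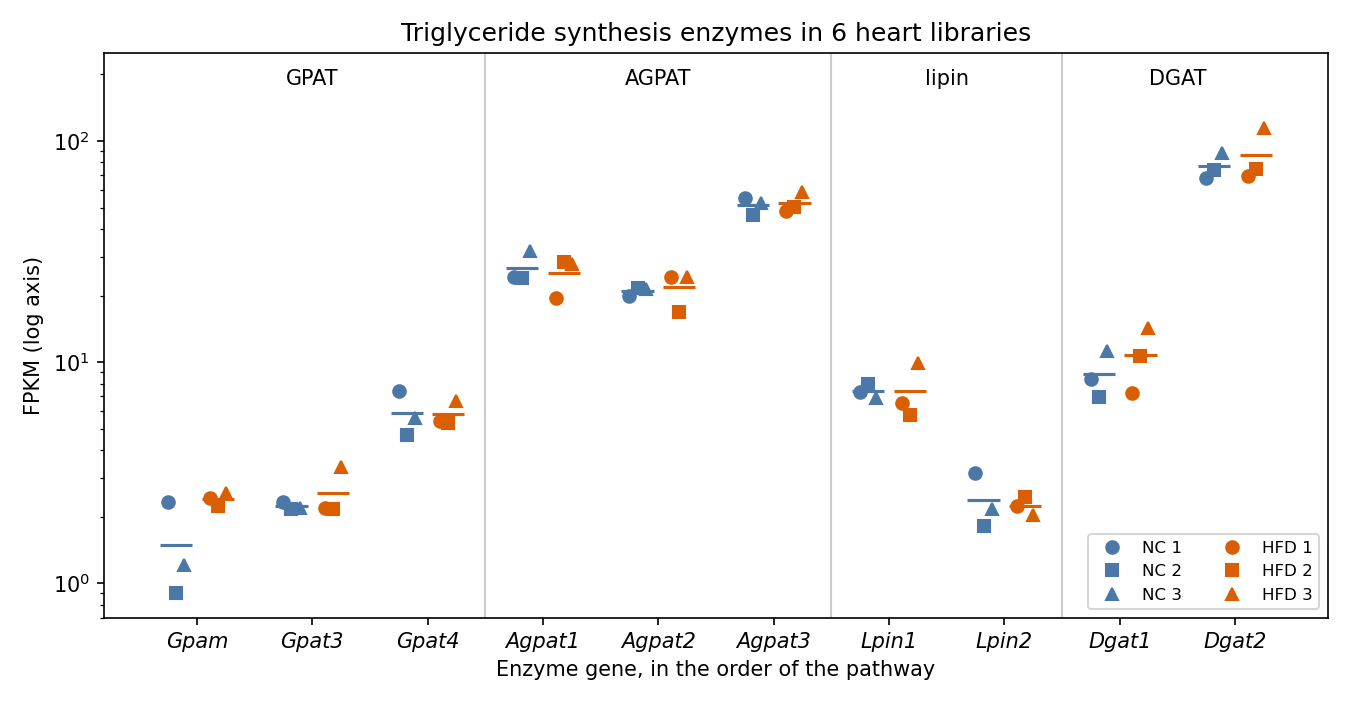
FPKM on a log axis for each enzyme gene in the 6 heart libraries, grouped by step; blue marks are NC libraries, orange marks HFD libraries, marker shape gives the library number and bars are the means of 3 libraries. Gpam shows the widest gap between the diet means (1.48 and 2.41 FPKM), with NC 1 among the HFD values.

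No enzyme separated the diets. On the log2(FPKM + 1) scale 0 of the 10 passed an adjusted p of 0.05 (limma, Benjamini-Hochberg over 11456 genes, percent of all genes called 0), and each had an adjusted p of 0.9998. At an unadjusted limma p under 0.05 there were 0 of the 10 and 415 of all genes (3.62%), 151 of them higher and 264 lower under HFD. Rescaled to the same sum without mitochondrial genes, those numbers were 368 and 202. The NC and HFD values overlapped in all 10 enzymes, where 8.13% of all tested genes did not overlap. The difference (HFD minus NC) was above 0 in 6 enzymes and below 0 in 4, with a median of 0.034 against −0.019 over all tested genes. The number above 0 was 5 to 9 under other settings and 3 without HFD 3. In each enzyme the 95% confidence interval included 0, and intervals reached past 0.4 on the log2 scale in both directions except in Gpam, Gpat3, Dgat1 and Dgat2, whose lower bounds were −0.041, −0.36, −0.36 and −0.37. For the other 6, a difference of 0.4 in either direction lies within the interval.

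**Figure D2:**
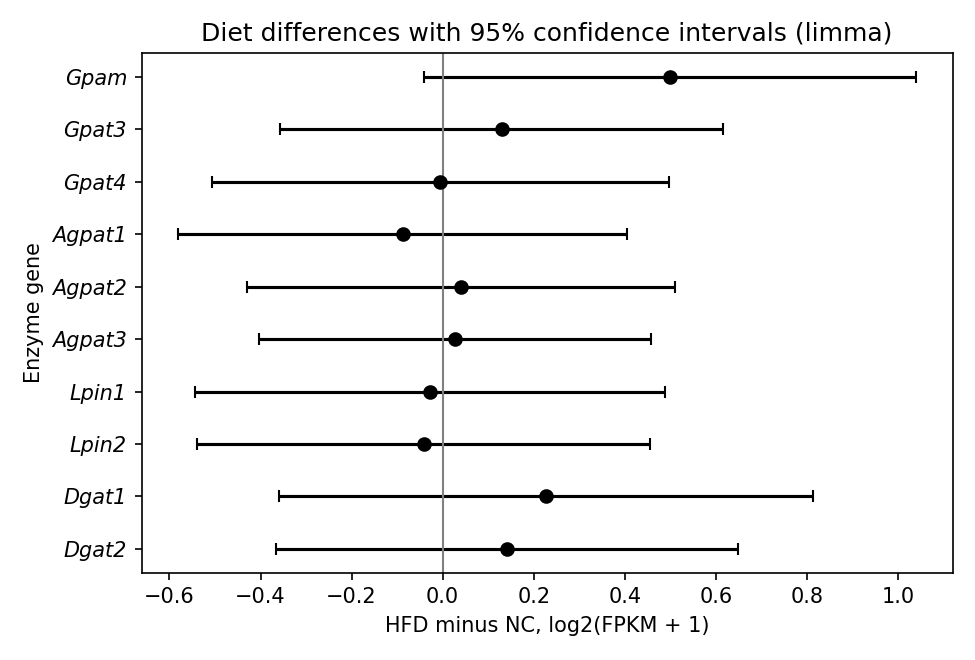
Difference between the diets (HFD minus NC) on the log2(FPKM + 1) scale for each enzyme; points are limma estimates from 3 libraries per diet and bars their 95% confidence intervals. All 10 intervals include 0, and that of Gpam runs from −0.041 to 1.04.

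The GPAT step was the 1 step whose composition split the libraries by diet, without a call in any of its genes. Gpam, the acyltransferase of the mitochondrial outer membrane, was at 2.34, 0.900 and 1.21 FPKM under NC (libraries 1, 2, 3 in this order throughout) and at 2.42, 2.24 and 2.57 FPKM under HFD. The HFD libraries were close together, and NC 1 lay above HFD 2, so that the diets overlapped by 1 library. The means were 1.48 ± 0.759 FPKM under NC and 2.41 ± 0.165 FPKM under HFD (SD, n = 3 per diet), a log2 difference of 0.50 (SE 0.25, limma unadjusted p = 0.0671). The difference was 0.33 without NC 2, 0.73 without NC 1 and 0.77 with a pseudocount of 0.1. A bulk heart sample cannot tell more cells that express a gene from more RNA per cell, here and for every gene below.

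The other GPAT genes encode enzymes of the endoplasmic reticulum. Gpat4 was at 7.38, 4.71 and 5.58 FPKM under NC and 5.41, 5.33 and 6.68 FPKM under HFD, with NC 1 the highest and NC 2 the lowest of all 6. Its means of 5.89 ± 1.36 and 5.80 ± 0.756 FPKM (SD, n = 3 per diet) gave a log2 difference of −0.0052 (SE 0.23). Gpat3 was at 2.34, 2.16 and 2.19 FPKM under NC and 2.18, 2.17 and 3.36 FPKM under HFD. Of these 6 values 5 lay within 2.16 to 2.34 FPKM and HFD 3 stood above them. The log2 difference of Gpat3, 0.13 (SE 0.22), was −0.023 without HFD 3.

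Within each library, Gpat4 made up the largest part of the summed GPAT transcripts, and its share was lower in every HFD library than in any NC library. It was 61.2, 60.6 and 62.2% under NC and 54.0, 54.7 and 53.0% under HFD, a mean of 61.3 ± 0.791% against 53.9 ± 0.881% (SD, n = 3 per diet). The share of Gpam was 19.4, 11.6 and 13.5% under NC and 24.2, 23.0 and 20.4% under HFD, a mean of 14.8 ± 4.09% against 22.5 ± 1.94%, and here too the diets did not overlap. Gpat3 held 23.8 ± 4.22% and 23.6 ± 2.67% (SD, n = 3 per diet), and its values overlapped. Each of the Gpam and Gpat4 differences, 7.70 and −7.43 percentage points, had an exact two-sided permutation p of 0.1, the smallest that 3 against 3 libraries allow, and an adjusted p of 0.4 over the 8 shares compared. The shares of a step add up to 100%, so these are not 2 independent results. A share does not depend on scaling between libraries. With any 1 library left out the Gpam difference ran from 6.08 to 9.99 points and the Gpat4 difference from −7.83 to −6.96 points. Because the diets did not overlap in these shares, leaving out 1 library could not turn the sign of either difference.

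**Figure D3:**
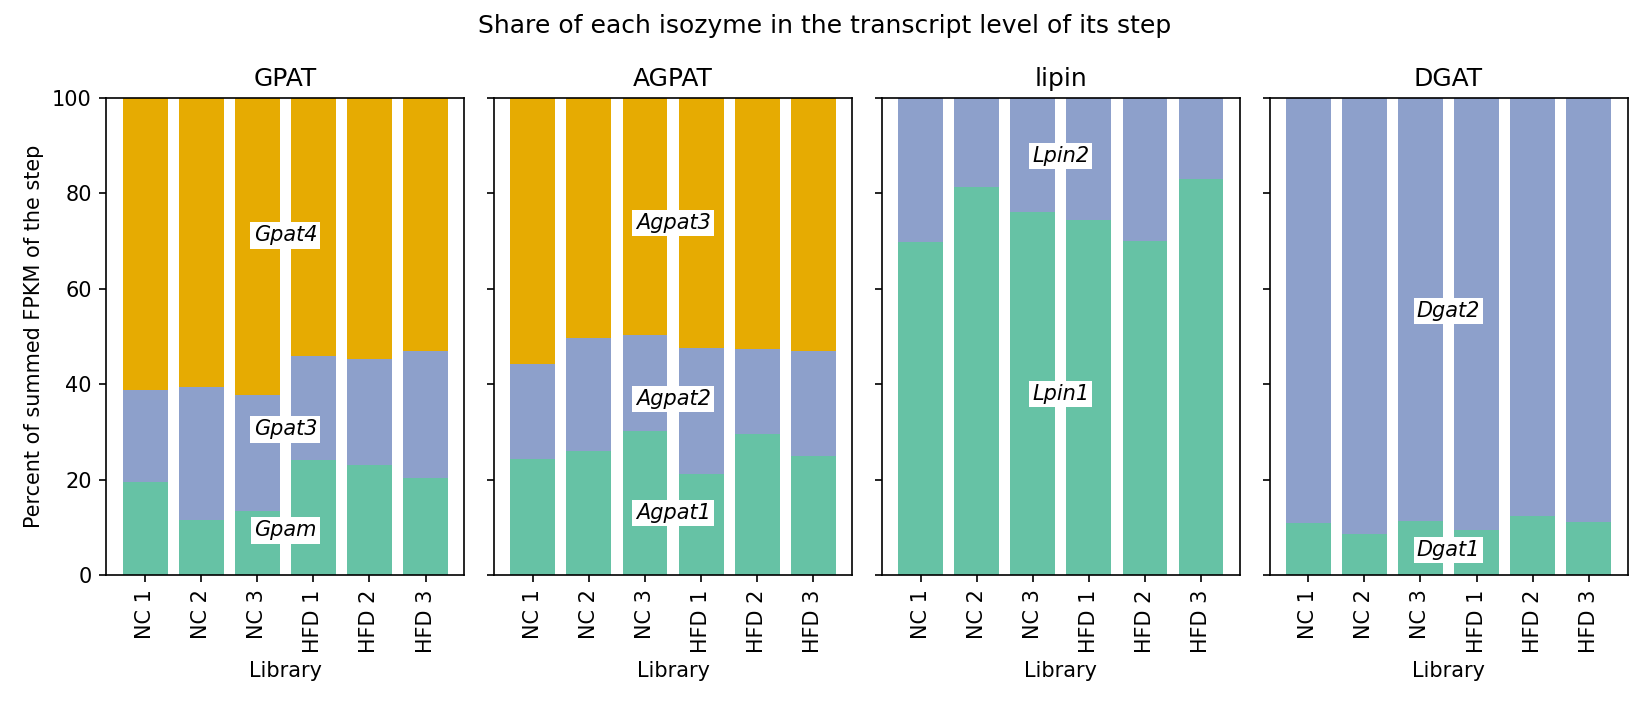
Percent of the summed FPKM of each step that each isozyme gene made up, one stacked bar per library and one panel per step. Gpat4 takes 60.6 to 62.2% of the GPAT bars under NC and 53.0 to 54.7% under HFD, and the other panels show no such split between the diets.

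The second step had 3 well-expressed genes, of which Agpat3 had the highest level and the smallest within-diet spread on the log2 scale. Under NC alone Agpat2 varied less (coefficient of variation 4.72%, against 9.07% for Agpat3), and under HFD more (19.6% against 10.6%). Agpat3, which encodes an acyltransferase of the endoplasmic reticulum and Golgi, was at 55.4, 46.3 and 52.4 FPKM under NC and 48.2, 50.3 and 58.7 FPKM under HFD. The diets interleaved, and its within-diet spread (SD of log2 values 0.139) was smaller than in all but 7.02% of tested genes. Its log2 difference was 0.027 (SE 0.20, 95% confidence interval −0.40 to 0.46), the narrowest interval of the 10. Agpat1, a broadly expressed enzyme of the endoplasmic reticulum, was at 24.2, 24.0 and 31.9 FPKM under NC and 19.5, 28.3 and 27.7 FPKM under HFD, with HFD 1 the lowest and NC 3 the highest. Its log2 difference was −0.088 (SE 0.23), and its within-diet SD of 0.259 was at the 42.8 percentile of tested genes.

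Agpat2, whose loss in people causes a near absence of body fat, was at 19.8, 21.7 and 21.4 FPKM under NC and 24.4, 16.9 and 24.3 FPKM under HFD. The NC values lay close together between a low HFD 2 and the other HFD libraries, which were high (log2 difference 0.040, SE 0.22). In HFD 2 the overlapping endothelial gene Egfl7 was at its highest, 344 FPKM against 137 to 229 FPKM in the other 5 libraries, and its part in the Agpat2 values was not tested. Shares within the step did not separate the diets, with Agpat3 at 51.9 ± 3.34% under NC and 52.7 ± 0.329% under HFD (SD, n = 3 per diet, exact permutation p = 0.8).

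Most transcripts of the lipin step were those of Lpin1. Lpin1 encodes a phosphatidate phosphatase that also acts as a coactivator of fatty acid oxidation genes, and it is the main lipin of muscle and fat. It was at 7.36, 7.93 and 6.86 FPKM under NC and 6.54, 5.74 and 9.88 FPKM under HFD, so that the NC libraries lay inside the span of the HFD libraries. Its means were 7.38 ± 0.537 and 7.39 ± 2.20 FPKM (SD, n = 3 per diet), and its log2 difference of −0.028 (SE 0.24) was −0.23 without HFD 3 and 0.11 without HFD 2. Lpin2, the lipin best known from liver, was at 3.17, 1.81 and 2.16 FPKM under NC and 2.24, 2.45 and 2.04 FPKM under HFD. NC held both the highest and the lowest value, and the log2 difference was −0.041 (SE 0.23). Lpin1 made up 75.8 ± 5.77% of their sum under NC and 75.8 ± 6.52% under HFD (SD, n = 3 per diet, exact permutation p = 1).

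Dgat2 made up most of the transcripts of the last step. Dgat2, an enzyme of the endoplasmic reticulum and lipid droplet surface, was at 68.0, 73.9 and 88.4 FPKM under NC and 69.6, 74.9 and 115 FPKM under HFD. HFD 3 was the highest library and NC 3 the next, and the remaining 4 lay within 68.0 to 74.9 FPKM. The means of 76.8 ± 10.5 and 86.4 ± 24.6 FPKM (SD, n = 3 per diet) gave a log2 difference of 0.14 (SE 0.23), which was −0.078 without HFD 3. Dgat1, a member of a separate protein family that catalyses the same reaction, was at 8.38, 6.96 and 11.3 FPKM under NC and 7.23, 10.7 and 14.3 FPKM under HFD. On the log2(FPKM + 1) scale, which damps low genes, it had the widest spread of the 10 within a diet (SD 0.386), while in FPKM the coefficient of variation was largest for Gpam under NC (51.2%, against 32.8% for Dgat1 under HFD). Its log2 difference of 0.23 (SE 0.27) was 0.013 without HFD 3 and 0.46 without HFD 1. Dgat2 made up 89.0, 91.4 and 88.7% of the step under NC and 90.6, 87.5 and 88.9% under HFD (exact permutation p = 0.6). The share left to Dgat1 ran from 8.61% in NC 2 to 12.5% in HFD 2.

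HFD 3 was the highest library in 6 of the 10 enzymes, namely Gpam, Gpat3, Agpat3, Lpin1, Dgat1 and Dgat2, and NC 2 the lowest in 6, namely Gpam, Gpat3, Gpat4, Agpat3, Lpin2 and Dgat1. Over all tested genes HFD 3 was highest in 34.5% and NC 2 lowest in 20.8%. HFD 1 was lowest in 33% of all tested genes but in only 1 of the 10 enzymes, Agpat1. The median FPKM of tested genes was 6.42 in HFD 3, the largest of the 6. It was 4.98 in NC 2 and 4.85 in HFD 1, the smallest. The part of these library-wide levels in the single enzymes was not tested. Leaving out NC 1 gave 1 enzyme whose diets did not overlap, Gpam, against 16.5% of all genes. Leaving out HFD 2 gave 2, Gpam and Agpat2, against 18.6%, and leaving out HFD 3 gave 1, Lpin1, against 21.4%. Leaving out NC 2, NC 3 or HFD 1 gave 0, against 15.7, 15.2 and 17.5%.

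Summed over isozymes, the acyltransferase steps that use lysophosphatidate and diacylglycerol had about equal transcript levels, and the GPAT and lipin steps were far lower. The AGPAT genes summed to 99.1 ± 6.91 FPKM under NC and 99.5 ± 9.94 FPKM under HFD, and the DGAT genes to 85.6 ± 12.4 and 97.1 ± 27.9 FPKM (SD, n = 3 per diet). The GPAT genes summed to 9.60 ± 2.21 and 10.8 ± 1.58 FPKM, and the lipins to 9.76 ± 0.754 and 9.63 ± 2.005 FPKM (SD, n = 3 per diet). In every library the AGPAT sum was 8.25 to 11.8 times the GPAT sum, and the DGAT sum was 7.25 to 11.1 times the lipin sum. Transcript level per length is not enzyme activity, and the ratios describe mRNA only. None of the 4 sums separated the diets (exact permutation p = 0.5 for GPAT, 0.9 for AGPAT, 0.9 for lipins and 0.6 for DGAT, adjusted p = 0.9 for each), and the DGAT difference of 11.5 FPKM was −4.40 FPKM without HFD 3.

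Isozymes outside the 10 were all below the leading gene of their step. Gpat2, a GPAT known from testis, was listed at 0 in 5 libraries and at 0.0451 FPKM in HFD 2. Agpat4 averaged 4.74 FPKM and Agpat5 5.12 FPKM, 4.30 and 4.64% of an AGPAT sum that includes both. Lpin3 averaged 1.36 FPKM, between 6.38 and 18.6% of a lipin sum that includes it, and in NC 3 it was at 2.06 FPKM beside 2.16 FPKM for Lpin2. With these isozymes in the sums, the diet difference of the Lpin1 share was 1.64 percentage points instead of 0.038 and that of the lipin sum −0.365 FPKM instead of −0.131 (exact permutation p = 1 for each). Mogat1 and Mogat2, which make diacylglycerol from monoacylglycerol in gut and liver, were listed at 0 in 4 and 5 libraries and stayed under 0.3 FPKM in the rest. A listed 0 is not shown to be absence, since mitochondrial genes were also listed at 0 in HFD 1.

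The genes around the pathway were read from 8 lists, and 0 members of any of them passed (limma adjusted p of 0.9998 for each gene). Acyl-CoA synthetases, which activate fatty acids for every acylation, had 4 of 5 tested genes above 0 (median log2 difference 0.038). Acsl6, with the lowest p and the largest difference of this list, went the other way (log2 difference −0.48, limma unadjusted p = 0.211). Acsl1, the main synthetase of heart, was at 52.4 ± 4.10 FPKM under NC and 63.4 ± 18.1 FPKM under HFD (SD, n = 3 per diet, log2 difference 0.23). The list on glycerol 3-phosphate and glycerol had 4 of 7 genes above 0 (median 0.024). It also holds G6pc3 (−0.19), a glucose 6-phosphatase gene, which handles neither glycerol 3-phosphate nor glycerol. Among those above 0 were the glycerol kinase gene Gk (0.23) and the glycerol channel gene Aqp7 (0.12). Gpd1, the cytosolic glycerol 3-phosphate dehydrogenase, was at −0.016. Other acyltransferases, lipins and lipin regulators had 4 of 9 above 0 (median −0.085). The lowest were Bscl2, the gene of the lipid droplet protein seipin (−0.30), and Ctdnep1, the phosphatase that activates lipins (−0.29).

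Side branches were read against the 46.9% of all tested genes that were above 0. Of the 8 tested genes of phospholipid synthesis by way of phosphatidate, a list that also holds the phosphatidylserine synthases Ptdss1 and Ptdss2, which act on other phospholipids, 6 were below 0 (median −0.20), and 2 of them did not overlap between the diets, both lower under HFD, against 4.88% of all genes. They were Crls1 and Cdipt. Cds1, which makes CDP-diacylglycerol from phosphatidate and fell short of the filter on low values, did not overlap either and was higher under HFD (0.671 ± 0.0847 and 1.08 ± 0.243 FPKM, SD, n = 3 per diet). The share of all genes covers tested genes only, so it does not apply to Cds1. Dgkh and Dgki, of the list on diacylglycerol and phosphatidate, also fell short of the filter and did not overlap. Dgkh was higher under HFD (means 0.0953 and 0.290 FPKM) and Dgki lower (0.0474 and 0.00570 FPKM). Dgki was listed at 0 in 2 libraries, HFD 2 and HFD 3. The share of all genes does not apply to Dgkh and Dgki either. Crls1, cardiolipin synthase, was at 8.52, 8.83 and 8.71 FPKM under NC and 7.31, 5.29 and 7.27 FPKM under HFD (log2 difference −0.36, limma unadjusted p = 0.124), and Cdipt, phosphatidylinositol synthase, chosen for naming once its values were known, had a log2 difference of −0.18. Of the 8 tested genes that turn diacylglycerol into phosphatidylcholine or phosphatidylethanolamine 7 were above 0 (median 0.12), led by Selenoi, the ethanolamine phosphotransferase (0.37). Among 11 genes that make or use phosphatidate or diacylglycerol, 8 were above 0 (median 0.058). The highest were Pld2 (0.36) and Pld1 (0.34), phospholipases D that release phosphatidate from phosphatidylcholine. The lipid phosphate phosphatase gene Plpp2 was the only one of them with an unadjusted limma p under 0.05, against 2.30% of all genes in its direction. It was at 1.61, 0.739 and 2.31 FPKM under NC and 0.612, 0.432 and 0.848 FPKM under HFD, with NC 2 among the HFD values (log2 difference −0.61, limma unadjusted p = 0.0376, adjusted p = 0.9998).

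Triglyceride storage and hydrolysis genes had 9 of 16 above 0 (median 0.095). Plin2, which coats lipid droplets, was at 23.0, 29.3 and 15.1 FPKM under NC and 32.5, 30.5 and 27.4 FPKM under HFD, with only NC 2 among the HFD values (log2 difference 0.45, limma unadjusted p = 0.0930). Cidea, a lipid droplet protein, was at 17.1, 18.5 and 15.2 FPKM under NC and 21.2, 22.0 and 21.5 FPKM under HFD. In no other gene of this list did all HFD values lie above the NC values, against 3.25% of all genes. The log2 difference of Cidea was 0.33 (limma unadjusted p = 0.119, adjusted p = 0.9998). Cideb, of the same protein family, was at 1.30, 3.17 and 1.71 FPKM under NC and 0.477, 0.990 and 1.78 FPKM under HFD (log2 difference −0.56, limma unadjusted p = 0.0812), the lowest p of the list. Mgll, which cleaves the last fatty acid from monoacylglycerol, had a log2 difference of 0.39 and Fitm1, which helps to form droplets in muscle, one of −0.28.

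Regulators of the pathway had 11 of 19 tested genes above 0 (median 0.082). Pparg, the nuclear receptor that drives fat storage in adipocytes, was at 7.27, 4.83 and 3.69 FPKM under NC and 10.2, 10.1 and 8.04 FPKM under HFD. It was the 1 tested regulator in which every HFD value was above every NC value, against 3.25% of all genes. Its log2 difference was 0.77 (SE 0.25, limma unadjusted p = 0.00957, adjusted p = 0.9998), and it was the 1 regulator with an unadjusted p under 0.05 in that direction, against 1.32% of all genes. Srebf1, the gene of the sterol regulatory factor that is known to drive Gpam in liver, was not among the genes that the naming rule took and is given for its role. It was at 6.96, 4.24 and 12.9 FPKM under NC and 5.30, 8.42 and 10.4 FPKM under HFD (log2 difference 0.074). Mlx, the partner of the carbohydrate-responsive factor, had a log2 difference of −0.38.

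**Figure D4:**
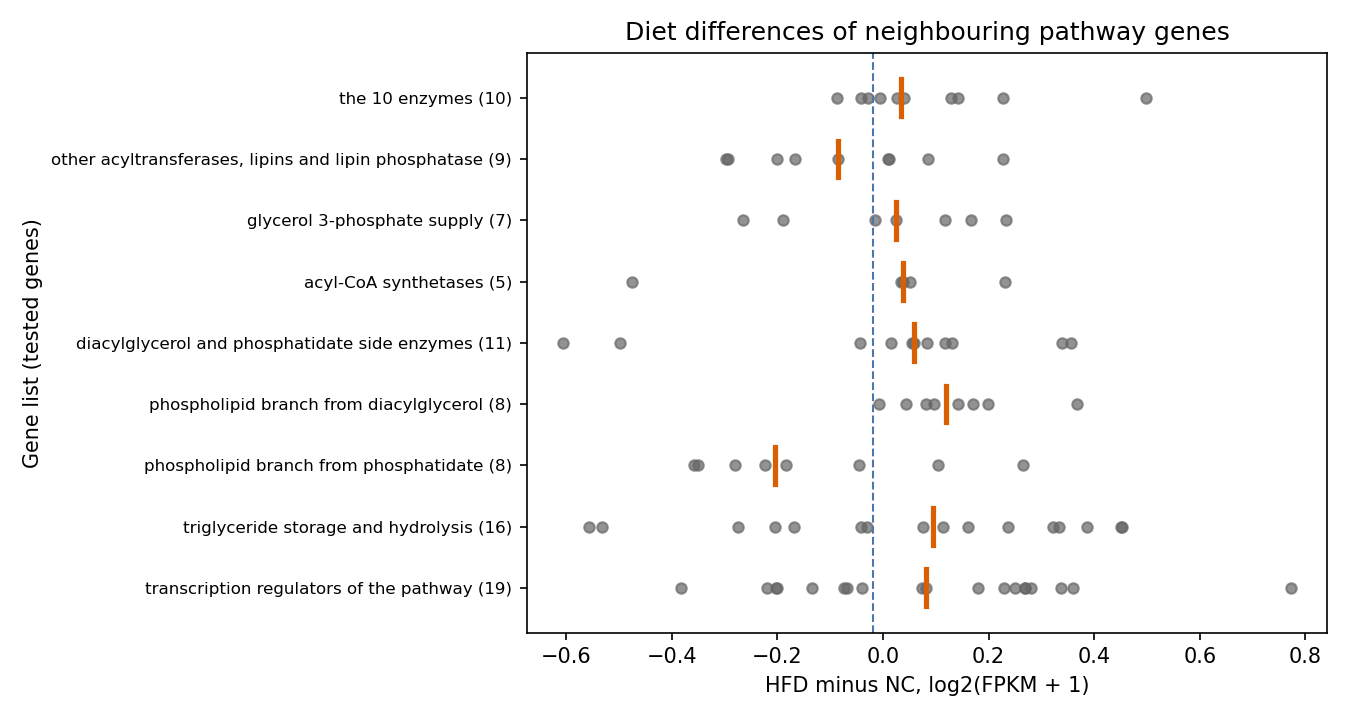
Difference between the diets (HFD minus NC) on the log2(FPKM + 1) scale for the tested genes of each list, with the number tested in brackets; grey points are genes, orange bars list medians and the dashed blue line the median of all 11456 tested genes (−0.019). Pparg, at 0.77, is the point farthest to the right, and the list medians lie between −0.20 and 0.12.

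Adipocyte transcripts differed greatly between libraries of the same diet, and Gpam, Agpat2, Lpin1 and Dgat2 are all strongly expressed in fat. The 10 adipocyte markers summed to 72.5, 4.60 and 60.9 FPKM under NC but to 1.24, 15.9 and 63.2 FPKM under HFD. The adipokine gene Adipoq was at 5.89, 0.326 and 4.41 FPKM under NC and 0.128, 2.10 and 5.23 FPKM under HFD, and Cfd, the most abundant marker, ranged from 0.630 FPKM in HFD 1 to 48.2 FPKM in NC 1. All 7 tested markers were below 0, and 5 of the 10 were listed at 0 in at least 1 library, namely Lep, Retn, Adig, Adrb3 and Ucp1. Ucp1, the uncoupling protein of brown fat, was at 4.11 FPKM in HFD 3, at 0.0653 FPKM in HFD 1 and listed at 0 elsewhere. NC 1, HFD 3 and NC 3 thus had the most adipocyte transcripts. Dgat2 was highest in HFD 3 and NC 3 and lowest in NC 1. Dgat1 was also highest in HFD 3 and NC 3. These libraries had the largest sums of atrial markers (7239 and 14060 FPKM), followed by NC 1 (3620 FPKM). HFD 1, with Adipoq and Cfd at their lowest, had Gpam at 2.42 FPKM, above all NC values, and a Gpam share of 24.2%, the largest of the 6. The part of adipocyte or atrial transcripts in the enzyme values, Gpam included, was not tested. Cidec and Pck1 stand both among these markers and in a pathway list.

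Markers of other cells were read in the same way. Of the 12 cardiomyocyte markers 10 were below 0, and 2 did not overlap between the diets. Both of these were lower under HFD, against 4.88% of all genes. Endothelial markers (8 genes) summed to 808 to 1276 FPKM under NC and 990 to 1925 FPKM under HFD, with all 8 above 0 and Fabp4, which adipocytes also express, the most abundant. Fibroblast markers, led by Dcn, summed to 394 to 711 and 313 to 616 FPKM, with 7 of 8 below 0, and macrophage markers, led by C1qa, to 131 to 175 and 90.1 to 127 FPKM, with all 8 below 0. The macrophage sums did not overlap between the diets. Structural RNAs, led by Rn7s2, summed to 229, 180 and 900 FPKM under NC and 184, 830 and 1705 FPKM under HFD. The part of these cell types and RNAs in the GPAT shares was not tested.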

How the data were processed

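The authors deposited 1 table of FPKM values per gene for 6 mouse heart libraries, 3 per diet. Per the submitters' processing notes, the build was mm10 and the tools were HISAT2 2.2.1 and HTSeq 0.13.5, Trimmomatic 0.38 and FastQC 0.11.9, and DESeq2 1.18.1 in R 3.4.1, with no roles given. The sources used here do not give the program and annotation behind the FPKM or the use of strand. FPKM are not counts, so depth is unknown and no counting interval is given.

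Symbols were matched by gene identifier for 23718 of 23808 genes. The 11456 genes that averaged 1 FPKM or more over all libraries were transformed to log2(FPKM + 1), which understates changes of low genes, and the diets were tested against each other by limma 3.58.1 (R 4.3.3), with a trended eBayes prior and two-sided p-values adjusted by Benjamini-Hochberg over all tested genes (threshold 0.05). SE and 95% intervals come from that fit. For shares and sums of isozymes the test was an exact permutation test, two-sided (scipy 1.17.1); its smallest p here is 0.1. Both were tested on simulated data.

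The enzymes and lists were chosen with earlier results of these data known. Named were all 10 enzymes, and from each pathway list genes from the 3 of lowest unadjusted p per direction. Of the marker lists, the most abundant gene and those listed at 0 were named. Genes with a pattern like that of an enzyme were to be named where its log2 values ranged over more than 1, which 0 of the 10 did. Genes outside the rule are Cdipt, Cds1, Dgkh, Dgki, Ptdss1, Srebf1, Adipoq, Cidec, the isozymes outside the 10 and genes with overlapping exons. Alternatives were other pseudocounts, filters, scalings, eBayes options, a block on the replicate number, library weights and leaving out each library. Figures were drawn with matplotlib 3.10.9.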

Additional observations from a re-analysis of the deposited data

How the results depend on the processing

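No enzyme passed the adjusted threshold under any of the 12 other settings of the limma fit, the replicate block included, or with any 1 library left out. Over those 12 settings the Gpam log2 difference ran from 0.42 to 0.77 (adjusted p from 0.951 to 1), and its unadjusted p was under 0.05 with each of the 4 scalings between libraries (0.0296 to 0.0383), as were 555 to 579 of all 11456 genes. Without NC 1 it was 0.0140, and 336 of 11407 genes were under 0.05. Directions near 0 turned. Gpat4 was at 0.0082 with median of log ratios scaling, 0.027 with upper quartile scaling and 0.073 when rescaled to the same sum without mitochondrial genes. Lpin1 was at 0.0019 and 0.050 with the latter pair, and with the last Lpin2 was at 0.025 and the lipin sum differed by 0.419 FPKM, the GPAT sum by 1.85 FPKM (1.19 before rescaling) and the AGPAT sum by 6.45 FPKM (0.416 before, exact permutation p = 0.2 for both sums after it). With library weights Agpat3 was at −0.0075. The cause was not tested.

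Leaving out 1 library gave log2 differences from 0.33 to 0.73 for Gpam, −0.023 to 0.21 for Gpat3, −0.13 to 0.15 for Gpat4, −0.18 to 0.078 for Agpat1, −0.045 to 0.21 for Agpat2, −0.055 to 0.084 for Agpat3, −0.23 to 0.11 for Lpin1, −0.16 to 0.12 for Lpin2, 0.013 to 0.46 for Dgat1 and −0.078 to 0.28 for Dgat2. In percentage points the shares ran from −2.49 to 1.71 for Gpat3, −3.74 to 0.453 for Agpat1, −1.43 to 2.94 for Agpat2, −0.339 to 2.72 for Agpat3, −3.51 to 2.90 for Lpin1 and −1.47 to 0.160 for Dgat2. Sums ran from 0.268 to 2.42 FPKM for GPAT, −5.24 to 4.09 for AGPAT, −1.28 to 0.589 for lipins and −4.40 to 21.7 for DGAT. Over all genes 0 to 1 passed, the 1 without NC 2.

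Same-numbered libraries of the diets had correlations of their deviations from the group means of 0.193, 0.0864 and 0.275. All were above 0 but not each above 0.1, the rule used, so the libraries were not taken as pairs. NC 2 correlated better with HFD 1 (0.251) than with HFD 2. Whether the numbers pair the libraries is not settled by these values. With the replicate number as a block 73 genes passed, none of the 10 among them. The smallest limma adjusted p was 1.42e-93 in that fit, against 0.281 in the main fit. The block leaves few residual degrees of freedom, and what made the adjusted p so small in that fit was not tested. The 73 are not read as findings. Paired sign flips gave the Gpam and Gpat4 shares and the DGAT sum a p of 0.25, the smallest that 3 pairs allow. The list medians kept their direction with a lower filter and with median of log ratios scaling.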
